A study of Homo sapiens with 2 samples.

Results

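Oncofetal genes are active in the fetal liver, are low or silent in the adult hepatocyte, and are switched on again in many hepatocellular carcinomas, where several of them serve as diagnostic markers. The 10 described here are the secreted protein AFP, the surface proteins GPC3, EPCAM and DLK1, the RNA-binding proteins LIN28B, IGF2BP1, IGF2BP2 and IGF2BP3, the transcription factor SALL4 and the imprinted gene PEG10. They were listed by name as known markers, by a rule that uses none of their values, although earlier results of these data were known. Each was found under 1 locus of its own in the gene tables of both libraries, 10 of 26228 gene names. In these liver cancer cells 9 of the 10 were expressed, here meaning that the FPKM averaged over the libraries was at least 1, as were 11118 names in all. DLK1 was listed at 0 in both.

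The libraries come from PLC, a cell line of human liver cancer, infected with lentivirus carrying either the empty pCDH vector (EV, a line with no added gene) or the same vector with the coding sequence of human PRSS35, a secreted protein of the serine protease family. Stable lines were selected with puromycin, and the labels give both samples the same growth protocol and no treatment. Whether the cells were serum starved before the RNA was taken is not given in the sources used here, and neither the promoter in the vector nor whether a line is a clone or a pool is given there. There was 1 library of total RNA for each line, so the differences below have no replicate check, no test was possible, and an effect of PRSS35 and any difference of the cultures or lines cannot be told apart. Since whole cultures were read out, fewer cells expressing a gene and less RNA per cell cannot be told apart either. The comparison asks how the transcripts of PLC cells differ when PRSS35 is expressed.

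FPKM counts the fragments sequenced from a gene relative to its transcript length and to all fragments mapped, and each value was deposited with a lower and an upper Cufflinks bound, printed below in brackets. These bounds describe uncertainty inside a library and say nothing of how much cultures vary. The interval of the expressed markers reached from 4.16% of the value on either side (EPCAM in PRSS35 cells) to 11.3% (IGF2BP3 in EV cells). Changes are log2 ratios of PRSS35 over EV after 1 FPKM was added to each value, which makes the changes of low genes look smaller, and a gene counts as changed at 2-fold. The PRSS35 transcript itself had an FPKM of 0.643 [0.445 to 0.841] in EV and of 1836 [1759 to 1912] in PRSS35 cells. All 9 liver cell markers checked were expressed, among them the keratin KRT18 (2781 and 2315 in EV and PRSS35) and the hepatocyte transcription factor HNF4A (41.2 and 47.7). Of 14 markers of blood, endothelial, stromal and kidney cells, 8 were listed at 0 in both libraries and 5 were below a mean FPKM of 1, the highest of these being COL1A1 (0.699 and 0.754). The remaining one, the macrophage marker CD68 (297 and 278), shares a joined locus with its neighbour MPDU1, so that its own level is not known.

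Many of these markers belong to one circuit. The LIN28 proteins bind the precursors of the let-7 microRNAs and block their maturation, and mature let-7, which is abundant in adult tissue, in turn pairs with the messages of LIN28B, of the IGF2BP family and of other fetal growth genes and lowers them. The pairing starts with the seed, bases 2 to 8 of the microRNA. The mature sequence of hsa-let-7a-5p is shown because the matches below are to its seed, printed in capitals; all 9 let-7 and miR-98 5p forms in the RefSeq table (GRCh38.p14) share it.
hsa-let-7a-5p: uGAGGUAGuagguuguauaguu

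The 7 bases CTACCTC, complementary to this seed, were searched on the transcribed strand in the 3′ UTR of each marker (GENCODE v44lift37, the MANE transcript or, without one, the protein-coding transcript with the longest 3′ UTR). LIN28B held 4 matches in 4549 bases of 3′ UTR and IGF2BP1 held 4 in 6701, a number reached by 12 of 19264 annotated genes (0.0623%). IGF2BP2, IGF2BP3 and SALL4 held 1 match each, in 2401, 2153 and 1934 bases. The other 5 markers had 0: AFP, GPC3 and EPCAM have short 3′ UTRs of 554, 379 and 407 bases, while those of PEG10 and DLK1, at 5161 and 3328 bases, are long. At least 1 match is found in 9.72% of all 3′ UTRs, whose median length is 1062.5 bases. The windows of 28 bases around the matches are printed so that they can be compared. Coordinates are hg19, the sequences run 5′ to 3′ on the strand of the gene, and capitals mark the match.
LIN28B, chr6:105526688-105526715, plus strand: cccggttgcaaagtCTACCTCatgcaag
LIN28B, chr6:105529115-105529142, plus strand: actgatgatagtaaCTACCTCtgagttt
LIN28B, chr6:105529297-105529324, plus strand: tttacagcaaaaggCTACCTCatagttg
LIN28B, chr6:105530736-105530763, plus strand: aatgatggtgttgaCTACCTCttgaatc
IGF2BP1, chr17:47128424-47128451, plus strand: gtgtgcgaagtaaaCTACCTCaaggtat
IGF2BP1, chr17:47131061-47131088, plus strand: agcagtgctagtaaCTACCTCacagagc
IGF2BP1, chr17:47131715-47131742, plus strand: tataaatggattaaCTACCTCaatcctt
IGF2BP1, chr17:47132360-47132387, plus strand: cacttttgttttatCTACCTCttagcaa
IGF2BP2, chr3:185362002-185362029, minus strand: acacacagaagaagCTACCTCaggtgtt
IGF2BP3, chr7:23351408-23351435, minus strand: gcatttttactcaaCTACCTCaggtatt
SALL4, chr20:50399456-50399483, minus strand: aagctttaatttatCTACCTCatttatt

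**Figure D1:**
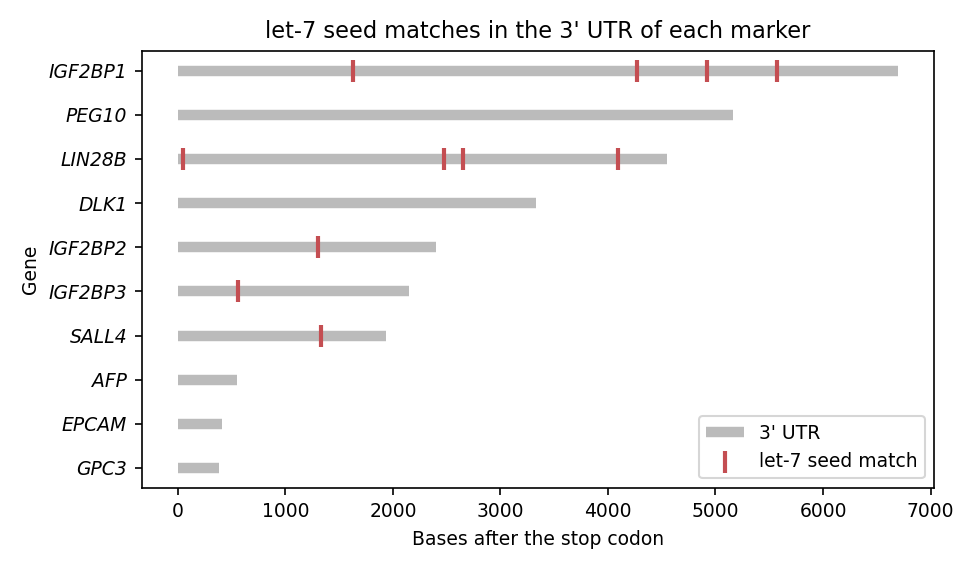
Position of the let-7 seed match CTACCTC in the 3′ UTR of each marker. The horizontal axis gives bases after the stop codon, grey bars are the annotated 3′ UTRs and red ticks the matches: 4 each in LIN28B and IGF2BP1, 1 each in IGF2BP2, IGF2BP3 and SALL4, and 0 in the other 5.

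The levels of the markers spread over about one order of magnitude. In EV cells EPCAM was the most abundant at 44.9 FPKM [43.0 to 46.9], followed by AFP (18.9) and IGF2BP2 (18.9), whose intervals overlapped, then by IGF2BP1 (17.0). PEG10 (12.0) and GPC3 (11.2) came next with overlapping intervals, then SALL4 (6.99), and last IGF2BP3 (4.91) and LIN28B (4.34), again overlapping. For all other pairs of genes next to each other in this order, the intervals were apart. That of IGF2BP2 (lower bound 17.92) cleared that of IGF2BP1 (upper bound 17.86) only narrowly. The interval of AFP [17.5 to 20.4] overlapped that of IGF2BP1. The order in PRSS35 cells differed in that AFP stood below IGF2BP2 with intervals apart, and below IGF2BP1 with intervals that overlapped as in EV. PEG10 and GPC3 no longer overlapped, and LIN28B stood above IGF2BP3, again with overlapping intervals. Among all names, the expressed markers ranked from 2584 (EPCAM) to 7610 (LIN28B) in EV and from 2436 (EPCAM) to 8030 (IGF2BP3) in PRSS35 cells. Their summed level was 139.3 FPKM in EV and 152.4 in PRSS35 cells.

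**Figure D2:**
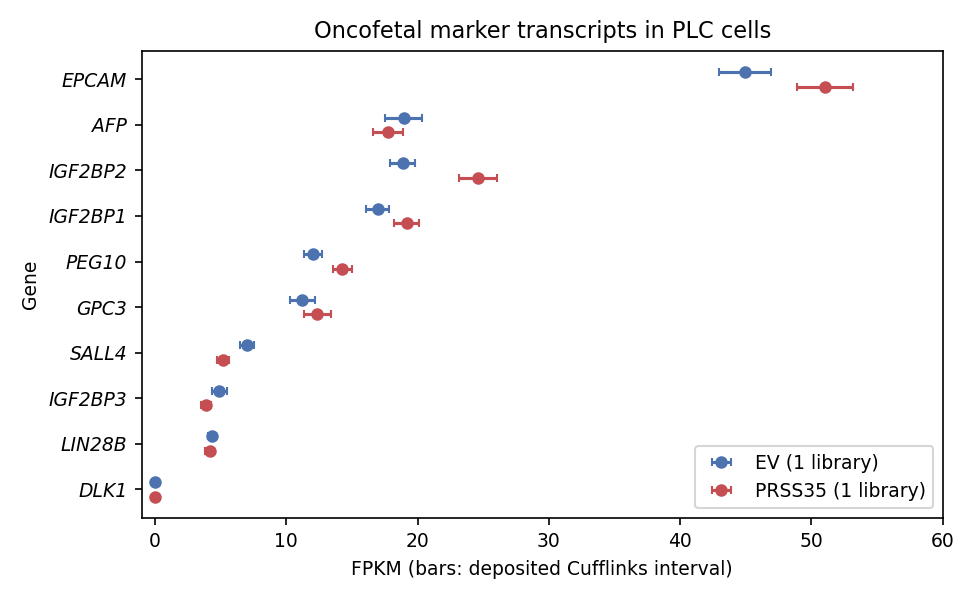
FPKM of the 10 markers in the EV library (blue) and the PRSS35 library (red), 1 library each, ordered by level in EV. Bars are the deposited Cufflinks intervals, which stay clear of each other for EPCAM, IGF2BP1, IGF2BP2 and PEG10 (higher with PRSS35) and for SALL4 and IGF2BP3 (lower), on FPKM as deposited; with FPKM scaled to the total of all loci, SALL4 and IGF2BP3 are higher too.

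The changes of the markers with PRSS35 were small. Of the 9 expressed markers, 0 were higher and 0 were lower by 2-fold, and their log2 changes ran from -0.38 (SALL4) to 0.37 (IGF2BP2) with a median of 0.13. Over all expressed names, 2.73% were higher and 2.48% were lower by 2-fold, and the median log2 change was 0.06. Intervals that did not overlap were found for 4 markers with the higher value in PRSS35 cells and for 2 with the lower, against 25.1% and 15.5% of all expressed names. The 5281 names with a mean FPKM in the range of the markers had a median of 0.09, and among them 2.75% were higher and 2.25% lower by 2-fold, and 29.1% and 12.4% had intervals apart in these directions. The markers were thus centred near the other genes of their level, and differences of the size seen in EPCAM or PEG10 were common.

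These directions depend on how the libraries are put on one scale. The FPKM of all loci summed to 2469030 in EV and 1508529 in PRSS35, with unnamed loci holding 65.3% of the EV total and 44.9% of the PRSS35 total. Scaling each library to this total (below, scaling to the total of all loci) moved the median of all expressed names from 0.06 to 0.68. AFP, IGF2BP3, LIN28B and SALL4, which were below 0 on FPKM as deposited, were then at 0.59, 0.31, 0.55 and 0.24, and IGF2BP2 passed 2-fold at 1.05. Relative to the median of all names nothing changed side: EPCAM, GPC3, IGF2BP1, IGF2BP2 and PEG10 were above it and the other 4 below it with either scale. Each direction given below is for FPKM as deposited and is to be read against that median.

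**Figure D3:**
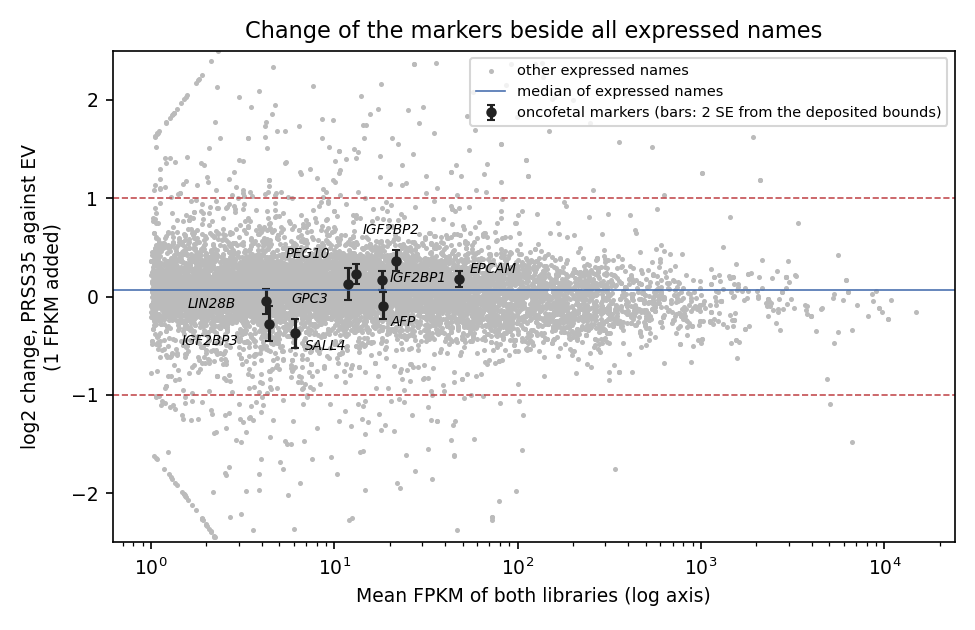
log2 change (PRSS35 over EV, 1 FPKM added) against the mean FPKM of both libraries on a log axis, for expressed names (grey) and the 9 expressed markers (black, with bars of 2 standard errors taken from the deposited bounds). The blue line is the median of expressed names, 0.06, the dashed lines mark 2-fold, and 234 names beyond 2.5 on the log2 axis are not drawn; all markers lie inside the dashed lines, although IGF2BP2 reached 1.05 after scaling to the total of all loci.

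AFP, the fetal counterpart of albumin and the classical serum marker of liver cancer, lies at chr4:74301936-74321502 on the plus strand (15 exons), next to the albumin gene ALB and to AFM of the same family. It had an FPKM of 18.9 [17.5 to 20.4] in EV and 17.7 [16.6 to 18.9] in PRSS35 cells, with a log2 change of -0.09 and overlapping intervals. ALB, the major plasma protein of the adult liver, was at 4.05 [3.53 to 4.57] and 5.21 [4.62 to 5.79], a log2 change of 0.30 with the intervals apart. AFP thus stood above ALB in both libraries, by a ratio of 4.68 in EV and 3.40 in PRSS35. AFM was near 0 (0.0185 in EV and 0 in PRSS35). AFP was assembled from reads in EV and kept its annotated structure in PRSS35. The 1089 names with this combination had a median log2 change of 0.01, against 0.08 for the 2382 annotated in both libraries, and the part of this in the value of AFP was not tested.

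Of the 14 listed regulators of AFP, 13 were expressed and 0 were past 2-fold in either direction (median 0.09). Intervals apart were found for 5 with the higher and 2 with the lower value in PRSS35 cells, beside 25.1% and 15.5% of all expressed names. The widest difference was in ZHX2, a repressor of AFP in the adult liver, with 4.91 [4.52 to 5.31] in EV and 9.14 [8.42 to 9.86] in PRSS35. Its log2 change was 0.78, but only the PRSS35 library has it as an assembled locus, a combination whose 1153 names had a median of 0.17. ZBTB20, the other well known repressor, was near 0 in both libraries (0.0358 and 0.0405) at a joined locus. The activators CEBPA (95.7 and 107), CEBPB (93.8 and 108), FOXA2 (54.9 and 63.3) and HNF4A were among the abundant members, with log2 changes of 0.16, 0.20, 0.20 and 0.21.

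GPC3, a glypican anchored to the cell surface that carries heparan sulfate and binds growth factors, lies at chrX:132669776-133119673 on the minus strand (8 exons). Its FPKM was 11.2 [10.3 to 12.2] in EV and 12.4 [11.4 to 13.4] in PRSS35, a log2 change of 0.13 with overlapping intervals. It was not the most abundant glypican of these cells. GPC1 was at 27.0 and 27.8, 2.40 and 2.25 times as high as GPC3. GPC4, the neighbour of GPC3 on the X chromosome, was at 1.498 [1.26 to 1.73] and 2.13 [1.85 to 2.42], and GPC6 at 2.81 and 3.71, both with intervals apart. Across 14 listed glypicans and enzymes of their processing, 11 were expressed and 0 were past 2-fold (median 0.13). With intervals apart, 3 had the higher and 0 the lower value in PRSS35, beside 25.1% and 15.5% of all expressed names. The third of these was EXT1, an enzyme that builds the heparan sulfate chain, at 8.76 [8.05 to 9.48] and 12.4 [11.6 to 13.1]. The chain-modifying enzymes NDST1 (21.1 and 21.9) and NDST2 (18.2 and 23.0) had overlapping intervals, as did FURIN, the convertase that cleaves GPC3, at 238 and 234. In EV the value of FURIN is that of a locus joined with FES.

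EPCAM, an adhesion molecule of epithelia that marks hepatic progenitors and is absent from mature hepatocytes, lies at chr2:47596287-47614167 on the plus strand (9 exons). It had an FPKM of 44.9 [43.0 to 46.9] in EV and 51.0 [48.9 to 53.1] in PRSS35, a ratio of 1.13 (log2 0.18). The intervals did not overlap, and the locus kept its annotated structure in both libraries. Of 16 EPCAM-related and progenitor genes, 9 were expressed, 0 were higher and 1 was lower by 2-fold, and the median was 0.16. With intervals apart, 3 had the higher and 2 the lower value in PRSS35, beside 25.1% and 15.5% of all expressed names. The one past 2-fold was CD47, the surface signal that restrains phagocytosis, which fell from 10.8 [9.42 to 12.3] in EV to 2.17 [1.93 to 2.42] in PRSS35 cells (log2 -1.90, and -1.38 after scaling to the total of all loci). CD47 was assembled from the reads in both libraries, each separately, and the part of this in its value was not tested. Of the 2382 expressed names annotated in both libraries, 17 were higher and 15 lower by 2-fold. Of all 11118 expressed names, 303 were higher and 276 lower. The surface marker CD24 (158 and 196) and the transcription factor SOX9 (2.73 and 3.74) had the higher value in PRSS35 with intervals apart. SOX4, a related transcription factor, had the lower, at 10.2 [9.70 to 10.8] and 9.16 [8.66 to 9.67] (log2 -0.14, and 0.51 after scaling to the total of all loci). The keratin KRT19, often used with EPCAM to mark progenitor-type tumours, was at 6.55 and 5.27 with overlapping intervals, so that EPCAM exceeded it by 6.86 times in EV and 9.68 times in PRSS35. ANPEP, another progenitor marker, was at 36.5 and 39.3 with overlapping intervals.

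DLK1, a surface protein related to the Notch ligands that marks hepatoblasts and is expressed from the paternal allele, lies at chr14:101193202-101201467 on the plus strand (5 exons). It was the only one of the 10 markers listed at 0, and its nearest named loci, LINC00523 and MIR2392, were also listed at 0 in both libraries. MIR2392 stands for a microRNA, which libraries of this kind do not read out, so its 0 says nothing of the region. Its relative DLK2 was expressed, at 18.0 [16.5 to 19.5] in EV and 19.8 [18.2 to 21.4] in PRSS35. Of 13 DLK1 and Notch genes 10 were expressed and 0 were past 2-fold (median 0.14). Intervals apart were found for 4 with the higher and 0 with the lower value in PRSS35, beside 25.1% and 15.5% of all expressed names. These 4 were the ligand DLL4 (8.22 and 11.2), the receptors NOTCH3 (6.92 and 8.08) and NOTCH4 (2.22 and 3.30, at a joined locus), and the Notch target HES1 (41.6 and 49.1). The ligand DLL3 was at 10.5 and 9.49 with overlapping intervals.

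The RNA-binding markers did not share a direction on FPKM as deposited, nor relative to the median of all names. LIN28B, at chr6:105404923-105531207 on the plus strand (4 exons), had an FPKM of 4.34 [4.01 to 4.67] in EV and 4.17 [3.85 to 4.49] in PRSS35, a log2 change of -0.05 with overlapping intervals. Its relative LIN28A, which acts in stem cells, was near 0 (0.0595 and 0.187). LIN28 proteins block let-7, yet let-7 itself is too short to be read out by libraries of this kind, so its level is not known here.

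The 3 IGF2BP proteins bind and stabilise messages such as those of IGF2 and MYC in the fetus and in tumours. IGF2BP1, at chr17:47074774-47133507 on the plus strand (15 exons), was at 17.0 [16.1 to 17.9] in EV and 19.2 [18.2 to 20.1] in PRSS35 (log2 0.17). IGF2BP2, at chr3:185361527-185542834 in EV and ending 185542844 in PRSS35 (minus strand, 16 exons), was at 18.9 [17.9 to 19.8] and 24.6 [23.1 to 26.1], a ratio of 1.30 (log2 0.37). IGF2BP3, at chr7:23349828-23509995 on the minus strand (15 exons), was at 4.91 [4.36 to 5.46] and 3.87 [3.48 to 4.27], a ratio of 0.789 (log2 -0.28). The intervals of each gene were apart, with the higher value in PRSS35 for IGF2BP1 and IGF2BP2 and the lower for IGF2BP3; after scaling to the total of all loci IGF2BP3 had a positive change as well, and was the only one of the 3 below the median of all names. The ratio of IGF2BP2 to IGF2BP3 within a library was 3.84 in EV and 6.35 in PRSS35, which no scaling of a library alters, and that of IGF2BP1 to IGF2BP3 was 3.46 and 4.95. IGF2BP2 had the largest positive change of the markers, above that of 88.2% of all expressed names. The paralogs share none of their 50-base stretches (0%), and the antisense gene IGF2BP2-AS1 inside IGF2BP2 was listed at 0 in both libraries, which matters since the library kit does not mark strand. Like AFP, IGF2BP3 was assembled from the reads in EV only. In that combination 22.9% of names had intervals apart with the lower value in PRSS35, against 6.80% of those annotated in both, and its part in the value of IGF2BP3 was not tested. IGF2BP1 and IGF2BP2 were assembled in both.

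The presence of seed matches did not go with a direction among the markers. Of the 5 markers with a match, IGF2BP1 and IGF2BP2 had the higher value in PRSS35 and SALL4 and IGF2BP3 the lower on FPKM as deposited, with intervals apart, and LIN28B did not differ beyond its intervals. Over expressed genes with an annotated 3′ UTR, the median log2 change was 0.06 without a match (n = 8595), 0.08 with 1 (n = 897) and 0.08 with 2 or more (n = 113). The wider list of LIN28 and let-7 genes had 16 of 20 members expressed, 0 past 2-fold and a median of 0.01. In it 3 had the higher and 2 the lower value in PRSS35 with intervals apart, beside 25.1% and 15.5% of all expressed names. HMGA1, a chromatin protein of fetal tissue, was by far the most abundant, at 759 [733 to 784] and 642 [621 to 664]. MYC was at 33.3 [31.9 to 34.7] and 39.6 [37.3 to 41.8], and was assembled from the reads in PRSS35 only. In that combination 39.3% of names had intervals apart with the higher value in PRSS35, against 23.5% of those annotated in both. The part of this in the value of MYC was not tested. The let-7 targets NRAS (62.2 and 60.3, at a joined locus), CCND1 (45.2 and 45.8) and HMGA2 (10.6 and 11.6) had overlapping intervals.

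SALL4, a zinc finger factor of the fetal liver and of stem cells that recruits the NuRD repressor complex, lies on the minus strand of chromosome 20 (4 exons), at chr20:50398911-50419055 in EV and chr20:50398910-50419189 in PRSS35. Its FPKM was 6.99 [6.45 to 7.54] in EV and 5.16 [4.71 to 5.62] in PRSS35, a ratio of 0.738 (log2 -0.38). The intervals were apart, and 7.64% of all expressed names had a lower change. Its paralog SALL1 was at 6.22 [5.52 to 6.92] and 4.10 [3.73 to 4.47], a log2 change of -0.50 with intervals apart, so that SALL4 exceeded SALL1 by 1.12 times in EV and 1.26 times in PRSS35. SALL2 was at 6.09 and 6.07, and SALL3 was near 0 (0.00603 and 0). After scaling to the total of all loci, SALL4 and SALL1 had positive changes, of 0.24 and 0.09, which were still 0.44 and 0.59 below the median of all names. SALL4 shares no 50-base stretch with SALL1, SALL2 or SALL3, and both SALL4 and SALL1 were assembled from the reads in both libraries. In that combination 19.1% of names had intervals apart with the lower value in PRSS35, against 6.80% of those annotated in both. The part of this in the values of SALL4 and SALL1 was not tested.

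The subunits of NuRD, which removes acetyl groups from histones and remodels nucleosomes, did not all share a direction on FPKM as deposited. Of the 17 SALL and NuRD genes 16 were expressed, 0 were past 2-fold, and the median was 0.10. With intervals apart, 7 had the higher and 4 the lower value in PRSS35, beside 25.1% and 15.5% of all expressed names. The 7 higher were all NuRD subunits, while the 4 lower included SALL4 and SALL1 themselves. The remodelling ATPases CHD4 (24.6 [23.5 to 25.6] and 32.8 [31.4 to 34.2]) and CHD3 (10.3 and 12.6) had log2 changes of 0.40 and 0.26. The deacetylase HDAC1 (94.4 and 111) and the histone-binding RBBP7 (59.1 and 67.6) were also higher beyond their intervals. MBD3, the most abundant subunit of the list, was at 193 [187 to 199] and 166 [160 to 171], the lower value being that of PRSS35 on FPKM as deposited, although its change was 0.49 after scaling to the total of all loci. MTA2 was at 99.7 and 105 with overlapping intervals, at a joined locus.

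PEG10, a gene derived from a retrotransposon that is expressed from the paternal allele and supports growth of the placenta and of liver tumours, lies at chr7:94285637-94299006 on the plus strand (2 exons). It had an FPKM of 12.0 [11.3 to 12.7] in EV and 14.3 [13.5 to 15.0] in PRSS35, a ratio of 1.18 (log2 0.23), with intervals apart and the annotated structure in both libraries. SGCE, an imprinted gene whose locus starts 115 bases away, was at 14.1 [10.0 to 18.2] and 15.4 [14.1 to 16.7], and the ratio of PEG10 to SGCE was 0.854 and 0.927. Of 18 imprinted genes of fetal growth 9 were expressed and 3 were listed at 0 in both libraries. None was past 2-fold, and the median was 0.12. Intervals apart were found for 3 with the higher and 1 with the lower value in PRSS35, beside 25.1% and 15.5% of all expressed names. H19, the fetal noncoding RNA of the liver, was at 43.4 [40.8 to 46.0] and 61.5 [58.2 to 64.8] (log2 0.49) at a locus joined with MIR675, and SNRPN was at 250.5 and 297.6 at a joined locus. PHLDA2, a maternally expressed restrainer of placental growth, was at 87.3 [83.1 to 91.4] and 71.5 [67.7 to 75.3] (log2 -0.28, and 0.42 after scaling to the total of all loci). IGF2, the fetal growth factor whose message the IGF2BP proteins bind, was low at 1.38 and 1.26, also at a joined locus, and H19 exceeded it by 31.5 times in EV and 48.7 times in PRSS35.

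A further list held other serum and oncofetal markers of liver cancer. Of 16 listed, 11 were expressed and 0 were past 2-fold (median 0.14). With intervals apart, 5 had the higher and 0 the lower value in PRSS35, beside 25.1% and 15.5% of all expressed names. DKK1, a secreted Wnt inhibitor used as a serum marker, was at 24.5 [23.1 to 25.9] and 32.0 [30.3 to 33.6]. LGALS3BP, a secreted glycoprotein, was at 13.6 and 15.9 and was assembled from the reads in PRSS35 only. The abundant PKM (1080 and 1183) and HSP90AB1 (723 and 798, at a joined locus) differed by less. The heparin-binding growth factor MDK was at 804 and 794 with overlapping intervals.

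**Figure D4:**
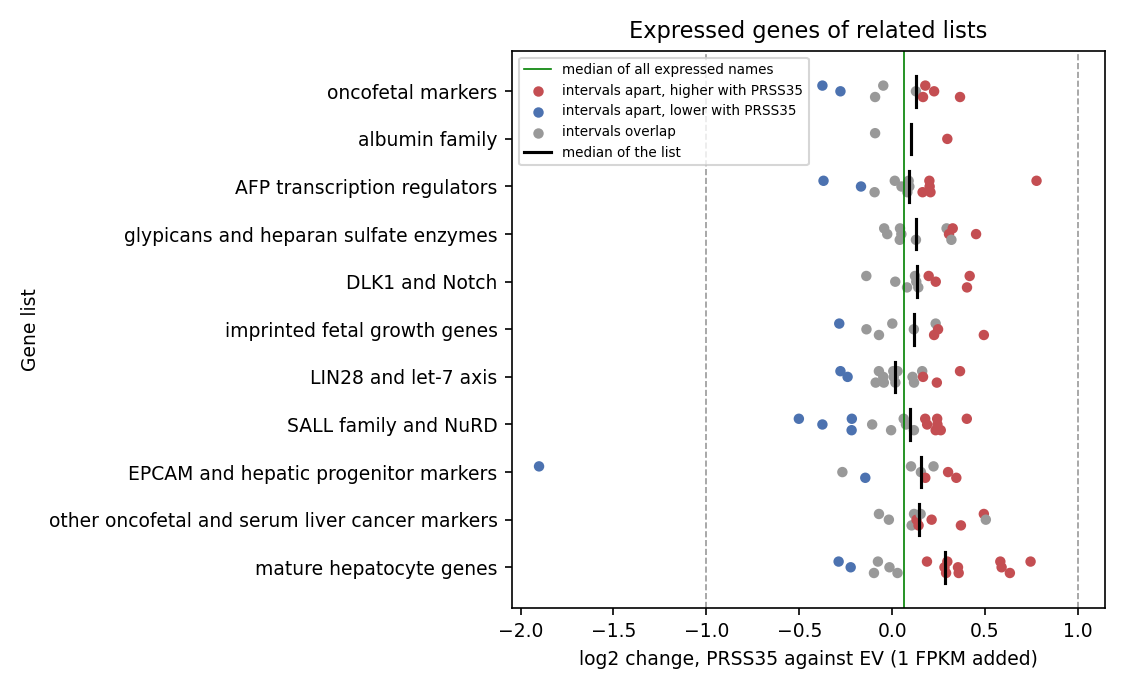
log2 change (PRSS35 over EV, 1 FPKM added) of the expressed genes of each list, 1 point per gene, red or blue where the Cufflinks intervals are apart and grey where they overlap. Black bars are list medians, the green line is the median of all expressed names, 0.06, and dashed lines mark 2-fold, which CD47 alone passes; after scaling to the total of all loci, every point shown except CD47 is above 0.

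The most abundant products of the mature hepatocyte stood far above the markers, although the expressed genes of both lists overlapped in level, with medians of 20.3 FPKM for the hepatocyte genes and 12.0 for the markers in EV. SERPINA1, the main plasma protease inhibitor, was at 2528 [2423 to 2633] in EV and 4239 [4113 to 4365] in PRSS35, or 133.5 and 239.3 times AFP. Of 22 mature hepatocyte genes 16 were expressed, 0 were past 2-fold, and 10 had the higher and 2 the lower value in PRSS35 with intervals apart, directions found in 25.1% and 15.5% of all expressed names. After scaling to the total of all loci, 6 of the 16 were higher by 2-fold, as were 1430 of 11602 expressed names. The median of the 16 hepatocyte genes on FPKM as deposited was 0.29, the highest of the lists, beside 0.13 for the oncofetal markers. It depends on the genes chosen. The 9 liver cell markers, which also include ALB, APOA1, APOB, TTR and SERPINA1, had a median of 0.03, with 4 higher and 3 lower by intervals apart. Among the mature hepatocyte genes, the largest log2 changes with intervals apart were those of SERPINA1 (0.75), the iron carrier TF (224 and 348, 0.63), the glucose-releasing enzyme G6PC (17.6 and 27.0, 0.59) and the plasma glycoprotein AHSG (16.7 and 25.5, 0.58). The receptor ASGR1 was at 521 and 667. AMBP did not differ beyond its intervals (2052 and 2032), and the apolipoprotein APOA1 had the lower value in PRSS35 (576 [550 to 602] and 494 [471 to 516]; its change was 0.49 after scaling to the total of all loci). The adult liver products HP, CYP3A4, CYP2E1 and TDO2 were at or near 0 in both libraries.

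**Figure D5:**
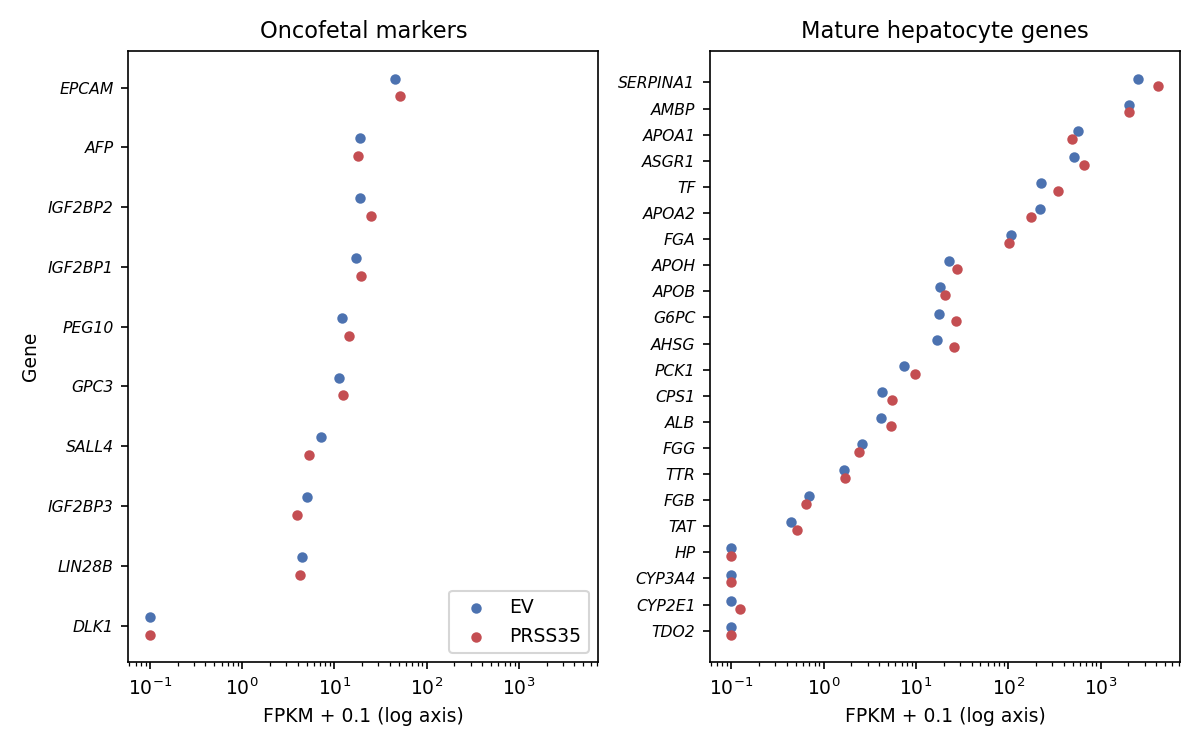
FPKM of the oncofetal markers (left) and of the mature hepatocyte genes (right) in EV (blue) and PRSS35 (red), with 0.1 FPKM added and on a log axis. The markers lie between 3.87 and 51.0 apart from DLK1 at 0, while the hepatocyte genes reach from 0 to 4239.

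The genes beside the markers gave no common pattern. MALSU1, a mitochondrial ribosome factor 647 bases from IGF2BP3, was at 97.7 [92.6 to 103] and 126.5 [121 to 132], the direction opposite to IGF2BP3. TRA2B, a splicing factor next to IGF2BP2, was at 38.4 [36.0 to 40.7] and 23.3 [22.0 to 24.6], again opposite to its neighbour, while SENP2 on the other side was at 9.78 and 11.4. ATP9A, next to SALL4, was at 4.74 [4.38 to 5.10] and 6.21 [5.88 to 6.53]. B4GALNT2, beside IGF2BP1, was at 3.18 and 2.73 with overlapping intervals, and BVES beside LIN28B and PPP1R9A beside PEG10 were below 1 FPKM in both libraries.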

How the data were processed

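Total RNA of PLC cells with empty vector or PRSS35 was made into NEBNext Ultra libraries and sequenced on an Illumina instrument, with 1 library per condition. By the paper's methods, the authors aligned reads to hg19 with TopHat2 (2.1.0) and used Cufflinks (2.2.1). The submitters' processing notes name Cuffdiff 2.2.1 instead and list the build dm6 beside hg19. The loci were read here as hg19. FPKM values and their bounds were used as the authors deposited them. The annotation release and options are not given in the sources used here, and no read counts were used, so depth per sample is unknown beyond the interval widths. Transcripts were assembled in each library separately, so a locus can be annotated in one and assembled in the other, which changes the length behind its FPKM. Genes above with intervals apart that were assembled in EV only include IGF2BP3, EXT1, HES1 and NOTCH3. Those assembled in PRSS35 only include ZHX2, MYC and LGALS3BP. Loci were matched by name, a joined locus counted for each of its names, rows of 1 name were summed, and haplotype and unplaced contigs were left out. A log2 ratio with 1 FPKM added was computed from the deposited FPKM, keeping names with a mean FPKM of at least 1 and calling changes at 2-fold. The members and the 13 gene lists were chosen with earlier results of these data known. Named genes are all members, PRSS35, the nearest named neighbours of the members, and in each list up to 4 of the highest in EV, all past 2-fold and up to 4 with the largest change among those with intervals apart. Others, namely ZBTB20, KRT19, SOX4, LIN28A, HMGA2, SALL2, SALL3, IGF2, and the 4 products of adult liver near 0, were added after their values were seen. Locus starts were taken as 0-based, since adding 1 met an annotated transcript start for 6083 of 13018 loci, against 581 without it, and are printed 1-based. Some genes that the rule names are not reported here. Alternatives were other pseudocounts, scalings, filters and thresholds. The calculation was tested on simulated data. Python 3.11.15, pandas 2.3.3, numpy 2.4.6 and matplotlib 3.10.9 were used.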

Additional observations from a re-analysis of the deposited data

Results flagged for a closer look

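Inside 2 of the markers the PRSS35 library holds an unnamed locus that Cufflinks assembled from the reads, and the EV library holds none inside any of the 10. The locus inside IGF2BP2 (chr3:185541032-185542561, 1530 bases) had an FPKM of 2.76 [2.23 to 3.29]. It lies in an intron of the main transcript and overlaps the first exon of an alternative transcript without a defined coding sequence. The locus inside IGF2BP3 (chr7:23508497-23509281, 785 bases) had an FPKM of 2.26 [1.49 to 3.03], and its place is of the same kind. Neither value is part of the levels given for the genes. These values were picked out because they are outside the named loci and have no counterpart in the EV library. A locus that is not listed in EV need not have had 0 reads there, and the cause of the difference was not tested.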

How the results depend on the processing

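Each of the markers with a value stayed on its side of 0 and moved by less than 2 of its own standard errors from the bounds in the settings tried other than scaling to the total of all loci, and none passed 1.5-fold on FPKM as deposited. After scaling to the total of all loci, 9 of 9 markers moved, and their median was 0.80, beside 0.68 for all expressed names. Of the markers 1 was higher by 2-fold, as were 1430 of 11602 expressed names. The share of higher among called names went from 52.3% to 88.4%. The markers had intervals apart in 9 cases with the higher and 0 with the lower value. How many of all names did so on this scale was not counted, so this is not a result about the markers. The sums over all loci differ through the unnamed loci. Scaling by the sum over named loci left 1 marker lower with intervals apart, as did a mean FPKM of at least 5, with which 169 names were lower by 2-fold. With a pseudocount of 5 FPKM 192 names were higher and 162 lower, without joined loci 183 were higher, and at 1.5-fold 581 were higher and 475 lower. Among the 2382 expressed names annotated in both libraries, 17 were higher and 15 lower by 2-fold. Of the 3 expressed markers left, 2 were higher and 0 lower with intervals apart. No paired analysis was possible because there was 1 library in each group. Intervals of up to 11.3% of the value limit what can be said of IGF2BP3, and no value measures the variation between cultures.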
